A study of Mus musculus with 28 samples.

Results

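Described here are regions open to DNase I in T cells given both TGF-β and IL-4, in a wild-type culture and in one from mice with tamoxifen-driven deletion of Tgfbr1, and open in neither culture without the cytokines. They were chosen by presence in the deposited peak lists: the 4 lists were merged wherever peaks overlapped by 1 bp or more, and a merged region was kept when it held a peak in WT TGFb+IL4 and in KO TGFb+IL4 and none in WT control or KO control. Of 50176 merged regions, 239 (0.476%) met this rule. The choice itself used the presence of peaks, so the presence and strength of the peaks are given as a description with no test.

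The study asked how TGF-β and IL-4 together drive CD4+ T cells towards IL-9-producing Th9 cells, and which steps need the type I TGF-β receptor. Naive CD4+ T cells came from mice on a C57BL/6 background, of both sexes and 8 to 10 weeks old. The DNase-seq labels give oil for WT and tamoxifen for KO, which the study describes for Tgfbr1 f/f mice with the tamoxifen-inducible Ert2-cre. Both DNase-seq groups then carried both floxed alleles and the Cre, and tamoxifen exposure and deletion cannot be told apart. The Ert2-cre is not restricted to T cells. The RNA-seq labels give WT or KO only. The study also lists Tgfbr1 f/f mice with Cd4-cre, and which mice gave the RNA is not stated. All cells were stimulated through the T cell receptor with anti-CD3 and anti-CD28, and were cultured in medium (control) or with TGF-β plus IL-4. DNase-seq maps DNase I hypersensitive sites (DHSs), stretches of chromatin where the enzyme can cut. There was 1 DNase-seq library per condition, all labelled replicate 3, the depth of these libraries is unknown, and no culture with IL-4 alone was profiled by DNase-seq. The RNA-seq set had 24 libraries, 3 for each of 8 cultures (WT or KO with medium, TGF-β, IL-4 or both).

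IL-4 binds a receptor that contains IL-4Rα, the product of Il4ra, and activates the transcription factor STAT6, which moves to the nucleus and binds DNA as a dimer. STAT dimers recognise a TTC and a GAA separated by a short spacer, and STAT6 is known for tolerating a spacer that is longer by a base than the one most other STATs prefer. TGF-β signals through a complex of the type I and type II receptors, encoded by Tgfbr1 and Tgfbr2, to the SMAD proteins, so a response to TGF-β plus IL-4 that remains without Tgfbr1 is a candidate for the IL-4 arm.

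The sequences below are from regions among the 20 strongest in both TGFb+IL4 lists (the first 8, picked because they hold the STAT6 letters, which 7 of the 20 lack), from the region assigned to Tgif1, a corepressor of SMAD targets, and from the Stat5b promoter. They show the letters on which the description turns. Each covers 75 bases on each side of the summit of the WT TGFb+IL4 peak, on the forward strand of mm9, and capitals mark TTCNNNNGAA, the STAT6 letters with a spacer of 4 bases (N is any base; the letters read the same on both strands), or, in the Stat5b promoter, TGANTCA, the AP-1 and BATF letters. The positions are chr9:123420189-123420339 for the Limd1 intron upstream of Sacm1l, chr3:130822423-130822573 for the Lef1 intron, chr8:26200195-26200345 for the Plekha2 intron, chr2:60708715-60708865 for the Rbms1 intron, chr3:133421506-133421656 for the intergenic region assigned to Tet2, chr17:63157336-63157486 for the Efna5 intron, chr7:132638932-132639082 for the intergenic region between Nsmce1 and Il4ra, chr15:85931844-85931994 for the Gramd4 intron, chr17:71130376-71130526 for the Dlgap1 intron assigned to Tgif1, and chr11:100712609-100712759 for the Stat5b promoter.
Limd1 intron: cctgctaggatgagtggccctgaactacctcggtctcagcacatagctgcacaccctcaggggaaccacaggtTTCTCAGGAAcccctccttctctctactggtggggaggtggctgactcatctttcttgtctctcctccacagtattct
Lef1 intron: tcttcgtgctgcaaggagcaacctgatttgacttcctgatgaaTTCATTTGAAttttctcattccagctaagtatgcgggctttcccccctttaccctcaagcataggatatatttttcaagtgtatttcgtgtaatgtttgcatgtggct
Plekha2 intron: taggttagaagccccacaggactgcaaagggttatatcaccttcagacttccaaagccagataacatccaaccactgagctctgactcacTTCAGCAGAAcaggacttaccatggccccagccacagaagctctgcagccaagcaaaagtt
Rbms1 intron: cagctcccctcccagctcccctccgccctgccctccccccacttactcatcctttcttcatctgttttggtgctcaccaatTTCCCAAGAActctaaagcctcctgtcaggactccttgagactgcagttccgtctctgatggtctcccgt
Tet2 upstream: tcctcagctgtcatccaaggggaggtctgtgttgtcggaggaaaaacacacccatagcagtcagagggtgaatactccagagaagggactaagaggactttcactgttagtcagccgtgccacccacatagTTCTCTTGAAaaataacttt
Efna5 intron: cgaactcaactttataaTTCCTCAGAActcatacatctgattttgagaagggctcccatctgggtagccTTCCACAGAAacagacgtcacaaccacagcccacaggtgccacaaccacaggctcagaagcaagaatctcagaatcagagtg
Nsmce1 and Il4ra: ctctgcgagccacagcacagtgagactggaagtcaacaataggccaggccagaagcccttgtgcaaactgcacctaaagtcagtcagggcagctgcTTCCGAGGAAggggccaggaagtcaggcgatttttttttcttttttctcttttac
Gramd4 intron: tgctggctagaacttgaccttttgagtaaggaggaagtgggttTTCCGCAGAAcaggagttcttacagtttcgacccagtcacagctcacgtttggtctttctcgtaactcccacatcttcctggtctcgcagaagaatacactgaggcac
Dlgap1 intron: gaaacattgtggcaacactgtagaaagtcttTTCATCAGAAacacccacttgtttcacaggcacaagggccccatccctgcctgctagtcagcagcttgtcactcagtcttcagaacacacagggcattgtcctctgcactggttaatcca
Stat5b promoter: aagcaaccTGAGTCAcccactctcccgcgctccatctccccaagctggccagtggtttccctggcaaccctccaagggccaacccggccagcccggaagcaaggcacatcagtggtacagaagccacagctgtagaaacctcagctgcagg

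The Efna5 window held the STAT6 letters at 2 places and each of the other 8 windows so marked held them at 1 place. In the Efna5 and Limd1 introns a match was centred 1.5 and 2.5 bp from the summit. In the Rbms1 and Plekha2 introns it lay 10.5 and 19.5 bp away, and between Nsmce1 and Il4ra 25.5 bp away. The Tet2 match lay 60.5 bp from the summit. Matches in the Lef1, Gramd4 and Dlgap1 introns lay farther out than the one between Nsmce1 and Il4ra and nearer than the Tet2 one. Over the 239, the match nearest the summit was centred within 20 bp of it in 12 regions. In successive steps of 20 bp out to 100 bp it was in 10, 13, 10 and 7 regions, so matches were spread over the window. A match is a description of the sequence and not evidence of binding.

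The 239 regions were a small class. WT control had 44298 peaks, WT TGFb+IL4 33880, KO control 33665 and KO TGFb+IL4 27145, and 21699 merged regions held a peak in all 4 lists. Regions in both control lists and in neither TGFb+IL4 list, the mirror image of the rule, numbered 2821. The pairs that share neither genotype nor treatment were also larger classes, with 908 regions in WT control and KO TGFb+IL4 only and 677 in WT TGFb+IL4 and KO control only. The 239 made up 0.717% of the merged regions with a peak in WT TGFb+IL4 and 0.9% of those with a peak in KO TGFb+IL4. List length bore directly on these counts. When the same number of top peaks by −log10 p (27145, the length of the shortest list) was taken from each list, 771 regions met the rule, among them 112 of the 239, and the other 5 pairs of lists held between 757 and 973 regions each.

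**Figure D1:**
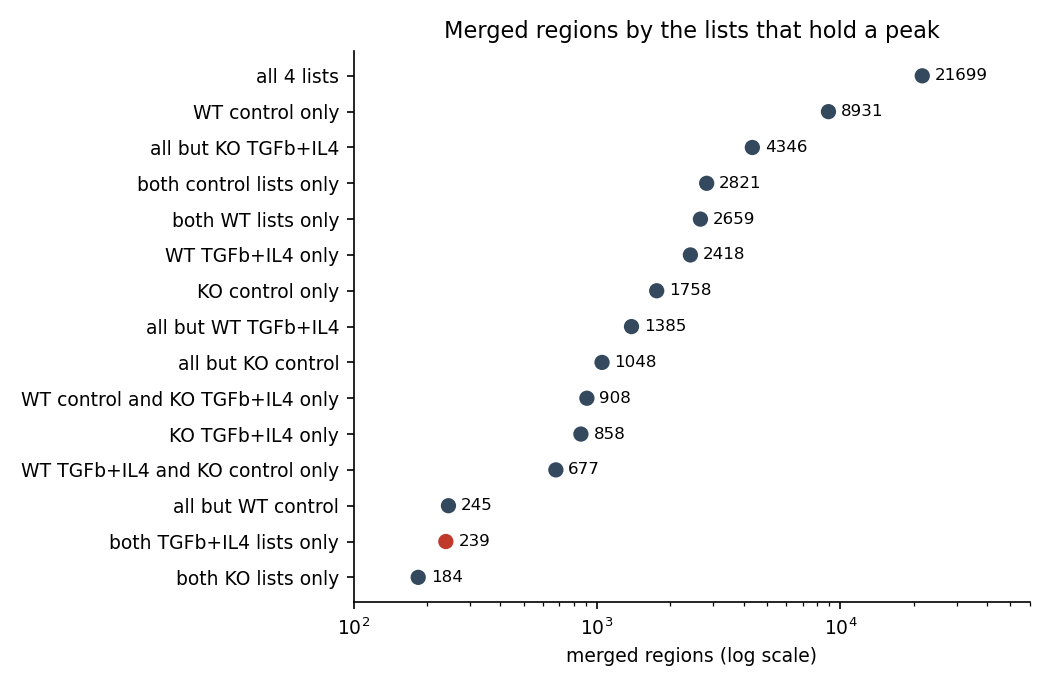
Number of merged regions (x axis, log scale) for each of the 15 patterns of presence in the 4 peak lists (y axis). The 239 regions in both TGFb+IL4 lists only are the red point; both control lists only held 2821.

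Most of the peaks were weak. Within its own list, where 100 is the strongest peak by −log10 p, the median of the 239 was at percentile 18.9 in WT TGFb+IL4 (from 0.282 to 79.9) and 16.1 in KO TGFb+IL4 (from 0.0645 to 69.3). Among the weakest 25% of the list were 156 in WT and 162 in KO. In the WT TGFb+IL4 list, regions in that list only had a median of 13.6, and those in both WT lists only 20.8. In the KO TGFb+IL4 list, regions in that list only had a median of 11.1, and those in WT control and KO TGFb+IL4 only 16.1. Regions in all 4 lists had medians of 67.3 in WT TGFb+IL4 and 59.4 in KO TGFb+IL4. A low median was therefore not particular to the 239. The fold enrichment over background given by the peak caller had a median of 4.07 in WT (1.65 to 7.74) and 3.88 in KO (1.81 to 6.26). The region upstream of Sfi1, in a Drg1 intron, was at the low end of both ranges. Above the median of both lists were 3 regions, those assigned to Sacm1l, Gpm6a and Lef1. The sequence around the Gpm6a summit held runs of a TG repeat, and whether repeats affected the mapping of reads was not tested. A −log10 q of at least 5 in both lists was reached by 80 regions.

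Some regions were strong in only 1 of the 2 lists. In a Clec16a intron, a region stood at percentile 79.9 in WT and 3.71 in KO, the Tgfbr2 intron region at 72.7 and 6.57, and the region in an exon of Ly6a, which encodes Sca-1, at 6.06 and 69.3. Of the 239, 130 had the higher percentile in WT. With 1 library per genotype these differences have no replicate check.

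**Figure D2:**
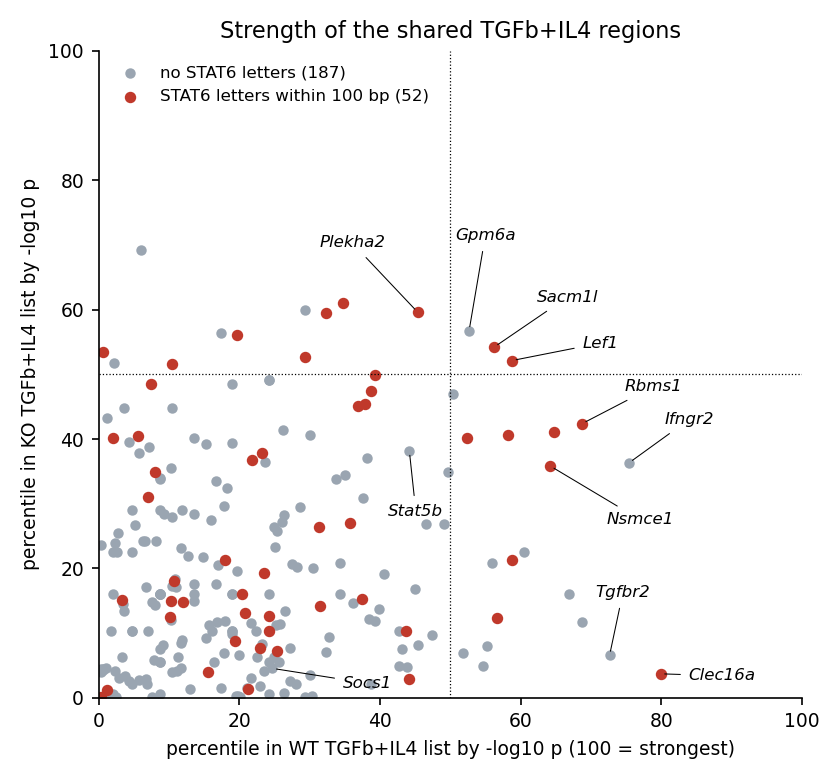
Strength of the 239 regions, as the percentile of the peak by −log10 p in the WT TGFb+IL4 list (x axis) and in the KO TGFb+IL4 list (y axis), 1 point per region. Red points (52) held the STAT6 letters within 100 bp of the WT TGFb+IL4 summit and grey points (187) did not; dotted lines mark the middle of each list.

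Summits in the 2 genotypes had to lie near each other, because the rule requires their peaks to overlap. They lay a median of 30 bp apart and within 50 bp in 152 of 239 regions (63.6%), against 72.7% of the regions with a peak in all 4 lists, whose median was 23 bp. Each of the 239 regions held 1 peak per list. Their median width was 322 bp (203 to 760), and the median of all merged regions was 357 bp. The threshold of the rule is the presence of a control peak. Just inside it was the region upstream of Fam105a, in place 4 by strength among the 239 (percentiles 50.4 and 46.9), whose nearest control peak began 3 bp away, and the region upstream of Epc2 had one 19 bp away. A control peak lay within 1000 bp of 67 regions (28%) and the median distance was 4.69 kb. Just outside the rule were 1048 regions with a peak also in WT control and 245 with a peak also in KO control, whose control peaks went down to a −log10 q of 2.24 and 2.21. The weakest peaks inside the rule had a −log10 q of 2.51 in WT, at Gm13145, and 1.93 in KO, at Rhoj and Gm10801.

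The regions were spread over 20 chromosomes and lay mostly away from promoters. A transcription start of a protein-coding gene was within 1000 bp of 44 summits (18.4%, 95% exact Clopper-Pearson interval 13.7 to 23.9), against 27.7% of all merged regions and 45.9% of those in all 4 lists. Introns held 86 (36%), exons 10 (4.18%) and intergenic sequence 99 (41.4%). The median distance to the nearest start was 14.6 kb, against 8.7 kb over all merged regions, and 25 regions lay more than 100 kb from any start. Interval and share treat regions as separate counts and cover counting error only. Regions in WT TGFb+IL4 only and in KO TGFb+IL4 only had promoter shares of 16.2% and 17.9%, so a low share of promoters was not particular to the 239.

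Promoter regions included Stat5b, which encodes a STAT activated by IL-2 family cytokines, at −646 bp from its start. Others were at the starts of Itm2b, of Cpt1a, the entry enzyme of mitochondrial fatty acid oxidation, of St6gal1, a sialyltransferase, and of Samhd1, a nucleotide hydrolase. The 44 promoter regions were weak (median of the lower of the 2 percentiles 7.37, against 10.3 for the other 195), and their windows had a median GC content of 60.2% against 49.3%.

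The STAT6 letters were more frequent in the 239 regions than over all merged regions. Exact matches of TTCNNNNGAA within 100 bp of the WT TGFb+IL4 summit were present in 52 of 239 regions (21.8%, interval 16.7 to 27.5), against 5.72% of all 50176 merged regions, 5.06% of those in all 4 lists and 3.83% of those in both control lists only. For merged regions with no WT TGFb+IL4 peak the summit of the strongest peak was used. The 3 classes next in order also contained a TGFb+IL4 peak: all but KO control (13.3%), KO TGFb+IL4 only (11.4%) and WT TGFb+IL4 only (11.2%). The base composition was alike, with a median GC content of 50.2% in the 239 windows and 50.7% over all regions. These shares are descriptions of the lists and no test of a difference was made.

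**Figure D3:**
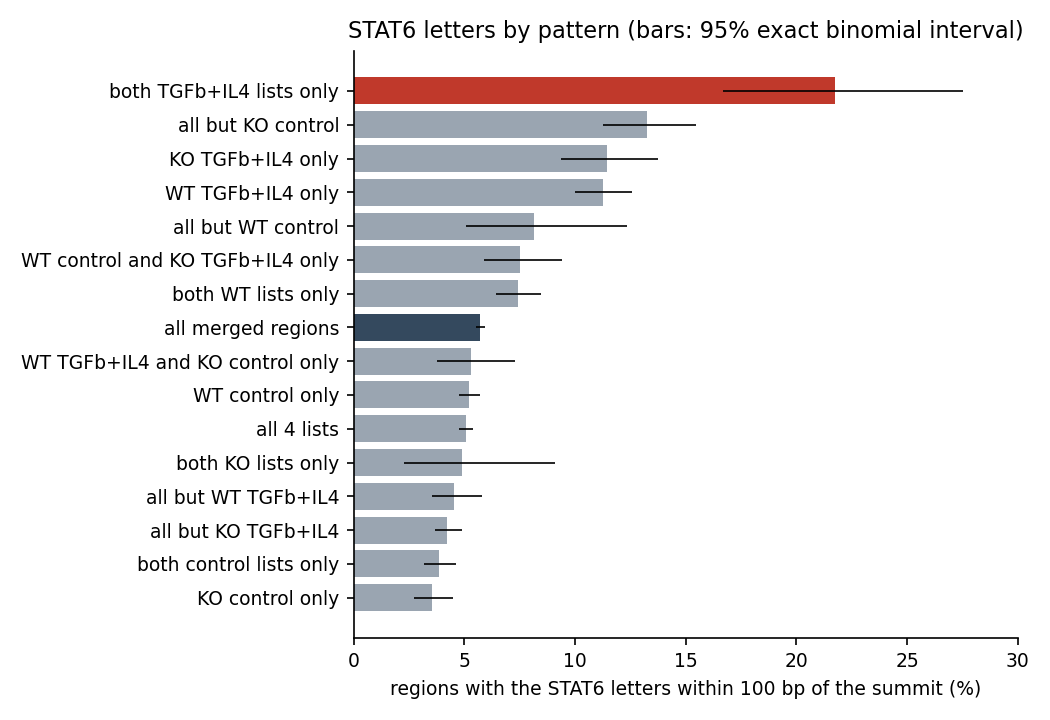
Share of regions with the STAT6 letters within 100 bp of the summit (x axis, %) for all merged regions (dark bar) and for each pattern of presence in the lists (y axis). Lines are 95% exact binomial intervals for counting error; the 239 regions (red) were at 21.8% and all merged regions at 5.72%.

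The share was highest among the strongest regions. Among the 20 regions strongest by the lower of their 2 percentiles, 13 held the letters (65%), against 13 of places 21 to 80 (21.7%) and 26 of the remaining 159 (16.4%). The 20 strongest regions of each of the other 5 pairs of lists, taken the same way, held them in 1 or 2 regions (5% or 10%). Of the 80 regions with a −log10 q of at least 5 in both lists, 25 held them (31.2%). With equal numbers of peaks from the 4 lists, an alternative chosen after seeing the data, the letters were in 125 of 771 regions (16.2%), and the other 5 pairs ranged from 4.36% to 6.39%. Away from promoters the share was 24.6%, against 6.55% of all such merged regions, and at promoters it was 9.09% (4 of 44), against 3.57%.

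Other factors' letters were searched on both strands in the same windows. The STAT letters with the shorter spacer, TTCNNNGAA, were in 8.37% of the 239 and 7.2% of all merged regions, and 8 regions held both spacings. ETS letters (ACTTCC) were in 23.4% against 22.5%, among them the Lef1 and Plekha2 introns. RUNX letters (TGTGGT) were in 21.3% against 20.8%, among them the Limd1 and Runx1 introns. GATA letters (AGATAA) were in 8.37% against 7.4%, among them the Plekha2 and Efna5 introns. The E-box (CAGCTG) was in 18.8% against 12.7%, with the Stat5b promoter among them. AP-1 and BATF letters (TGANTCA) were in 10.5% against 15%, and the NFAT core (TTTCCA) was in 10.9% against 16.9%; both shares were lower than over all regions. The SMAD letters (GTCTNGAC) were in 2 regions (0.837% against 1.16%). The letters of PAR bZIP factors and NFIL3 (TTANGTAA) were in none (against 1.31%). E2F letters (TTTCNCGC) were in 4 regions (1.67% against 1.19%), of which the one assigned to Smad2 was an example. The TCF and LEF letters (TTCAAAG) were in 5.86% against 5.39%. IRF repeats (GAAANNGAAA) were in 2.51% against 4.91%. NF-kB letters (GGGANTTNCC) were in 1.67% against 1.76%, and the CTCF core (CCANNAGGNGGC) was in 2.93% against 5.74%. In 64 regions, among them those assigned to Fam105a and Zfp831, none of the 15 sets of letters was found.

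**Figure D4:**
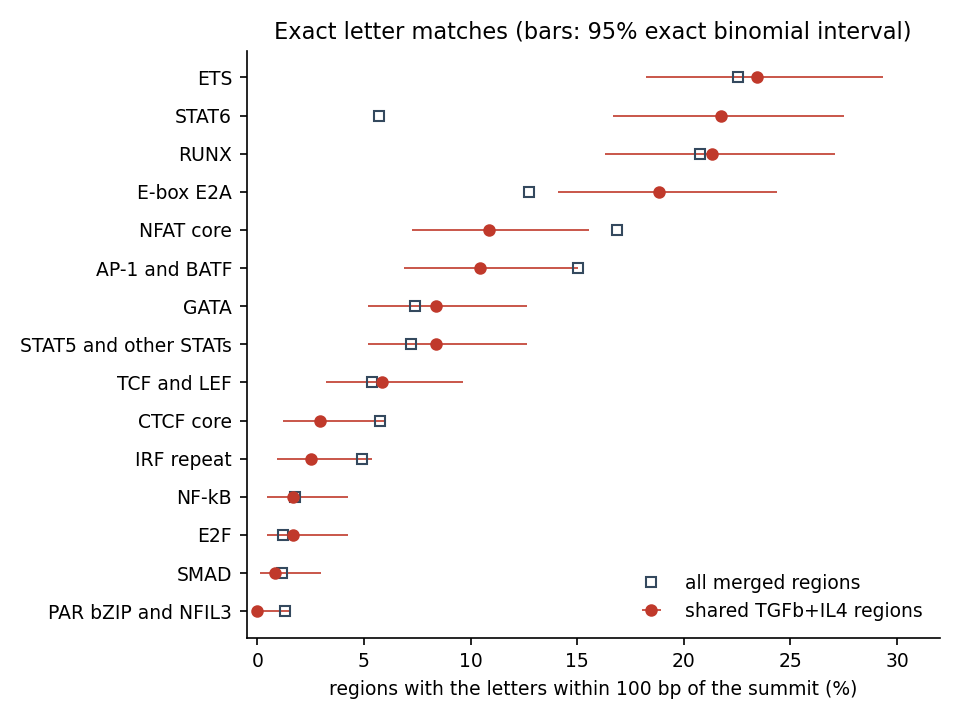
Share of regions (x axis, %) with an exact match of each set of letters (y axis) within 100 bp of the summit, in the 239 regions (red points, with 95% exact binomial intervals for counting error) and in all 50176 merged regions (open squares). The STAT6 letters had the widest gap, 21.8% against 5.72%.

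Signalling genes of the IL-4 arm were near a few of the regions. The region at chr7:132638783-132639188 lay 3.9 kb upstream of Nsmce1, a subunit of the SMC5-SMC6 complex, and 56.8 kb upstream of Il4ra. Il4ra is named here after its position and values were seen. The region stood at percentile 64.3 in WT and 35.8 in KO and held the STAT6 letters. The Stat5b promoter region at chr11:100712516-100712882 stood at percentiles 44.2 and 38.1, 7.98 kb upstream of the Stat5a start, and held AP-1 and E-box letters and not the STAT6 letters. The region assigned to Socs1, a feedback inhibitor of cytokine receptors, at chr16:10723292-10723628, lay 62.1 kb from its start within an intron of Clec16a, at percentiles 24.7 and 4.55. Clec16a held 3 of the regions within its bounds. The region assigned to Maf, a transcription factor of Th2 and follicular helper cells, at chr8:118092333-118092651, lay 139 kb from its start and stood at percentiles 24.2 and 16.1, with the shorter STAT spacing and AP-1 letters. Stat5b, Socs1 and Maf were the 3 members of the IL-4 and Th2 list that were nearest to a region, 1.26% of the regions against 1.34% of all merged regions, so the list as a whole was not more frequent near the 239.

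Genes of the TGF-β pathway were nearest to 5 regions (2.09%, against 0.827%). Runx1, a transcription factor that works with SMADs, had 2, one in its intron at chr16:92811208-92811548 (percentiles 39.3 and 11.9, with RUNX and shorter STAT letters) and one 102 kb upstream (19.9 and 6.66). The Tgfbr2 intron region at chr9:116010011-116010770 was the widest of the 239. Tgif1 had the Dlgap1 intron region at chr17:71130287-71130617, 65.2 kb from its start, with the STAT6 letters and percentiles of 43.7 and 10.3. The region assigned to Smad2 lay 80.5 kb from its start, at percentiles 10.3 and 35.6.

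Lef1, Bach2 and Ifngr2 were each nearest to a region, and the shares of their lists were close to those of all merged regions. The Lef1 intron region at chr3:130822378-130822766 was 6.77 kb from the start of Lef1, a TCF family factor of naive T cells, and stood at percentiles 58.8 and 52.1. Bach2, a repressor of effector genes, had an intron region with the STAT6 letters at percentiles 12 and 14.8. The region 8.32 kb upstream of Ifngr2, a chain of the interferon-γ receptor, at chr16:91538803-91539145, stood at percentiles 75.4 and 36.3 and held ETS and RUNX letters. Naive-cell list genes were nearest to 2 regions (0.837%, against 0.761%), Th1 and cytotoxic list genes to 1 (0.418%, against 0.299%), and activation list genes to none (against 0.857%). CD4 T cell marker genes were nearest to none (against 0.259%), and marker genes of all other cell types to 2 (0.837%, against 0.0777%).

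The strongest region of all by the lower percentile lay in a Limd1 intron, at chr9:123420076-123420437, 18.7 kb upstream of Sacm1l, a phosphoinositide phosphatase, with percentiles of 56.3 and 54.2 and with STAT6, AP-1 and RUNX letters. Next to it in strength, the region assigned to Gpm6a at chr8:56206691-56207025 lay 167 kb from that start and held only RUNX letters of the 15 sets. The Plekha2 intron region at chr8:26200140-26200450 was 1.55 kb from its start (45.4 and 59.6), and the Rbms1 intron region at chr2:60708529-60709031 was 10.7 kb from its start (68.8 and 42.4). Tet2, a DNA demethylating enzyme, was nearest to a region 214 kb upstream, at chr3:133421434-133421765 (58.2 and 40.7), whose nearest control peak was 131 kb away. Rybp, a Polycomb component, was nearest to 2 regions, both with the STAT6 letters. The others of the 20 were assigned to A630091E08Rik, Gm6736 (within Nbas), Pdss2, Efna5, Grap2, Radil, Gng4, Gramd4 and Zfp831. Around the Gng4 summit the sequence was mostly repeats of the letters GGGTTA, so the strength of that peak, like that at Gpm6a, is given with this limit. In all, 232 genes were nearest to a region, 7 of them to 2 and none to 4 or more.

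The headings of the RNA columns need care. Read counts that the study lists by library number for 8 WT libraries were compared with the RPKM columns by their pattern of zeros. For each of the 8 libraries 1 column agreed at 99.8% or more of the genes, the next column at 72% to 85.9%, and that column carried the library's own heading in 2 of 8. All 8 columns were the ones expected if the 24 columns stood in ascending library number instead of under their headings. The 12 KO columns and 4 WT columns were not checked, so the culture behind each KO heading is uncertain, and the same mismatch may hold there. Each comparison between cultures is therefore given with columns as headed, which is the fit laid down, and for WT also with the 8 matched columns, 2 per WT culture, chosen after seeing the data. Tgfbr1, the deleted gene, is given first. As headed, it was 3.02, 13.9 and 3.69 RPKM in WT control, 17.6, 3.25 and 14 in WT TGFb, 3.48, 19.5 and 3.31 in WT IL4 and 14.5, 3.94 and 20.7 in WT TGFb+IL4. Under KO headings the gene was at 2.32, 2.37 and 2.92 in control, 3.45, 2.55 and 2.42 in TGFb, 3.75, 5.18 and 3.05 in IL4 and 3.24, 3.17 and 3.35 in TGFb+IL4. The 12 WT columns had a median of 8.91 and the 12 KO columns of 3.11, and their ranges overlapped. In the matched columns Tgfbr1 was 3.02 and 3.31 in WT control, 13.9 and 14.5 with TGF-β, 3.69 and 3.94 with IL-4 and 17.6 and 20.7 with both, so its level in WT control columns was within the KO range.

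RNA levels were used to describe the nearest genes. For the 220 regions whose nearest gene is in the RNA table, the median RPKM (reads per kilobase of transcript, scaled to library size) over all 24 columns was at least 1 for 133 (60.5%), against 70.2% over all merged regions, and the median of these medians was 1.88 against 4.37. Each library pools many cells, and fewer cells of a type and less RNA per cell cannot be told apart. High levels were seen for Socs1 (median 155 RPKM), Itm2b (122), Nsmce1 (115), Stat5b (44.1) and Lef1 (41.7), whereas Efna5 (0.48), Zfp831 (0.27) and Gng4 (0.012) were below 1 and Gpm6a was at 0. All 14 CD4 T cell marker genes had a median of at least 1 RPKM, the highest being Lat (526), and 12, 11, 11 and 11 of them had a peak within 1000 bp of a start in WT control, WT TGFb+IL4, KO control and KO TGFb+IL4. Markers of other cell types were far lower: Cd8b1 led the CD8 T cell genes (18.9), Cd79b the B cell genes (7.05), Fcer1g the myeloid genes (11.8), Klrd1 the NK cell genes (1.63) and Gata1 the erythroid genes (1.97), by their medians. Of the erythroid genes, Hbb-b1 was listed at 0 in every column and Hba-a1 had a median of 0 and a highest value of 21.9. What other cells contributed was not tested.

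With columns as headed, limma (moderated test on log2(RPKM + 1), Benjamini-Hochberg adjusted p under 0.01 and fold over 1.5) called none of the 131 nearest genes tested for WT TGFb+IL4 against WT control (background 0% of 9780 genes higher and 0% lower; 61 genes had an unadjusted p under 0.05). It called none of 127 for KO TGFb+IL4 against KO control (background 0% of 9573 higher and 0% lower; 887 at an unadjusted p under 0.05). Only 2 of the 8 WT libraries checked were found under their own heading, so the WT groups as headed mix cultures. The KO headings were not checked and may mix cultures as well. These counts therefore do not show that nearest genes lacked a response in either genotype.

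With the matched WT columns, limma called 28 of 133 nearest genes tested (21.1%) higher with TGF-β plus IL-4 than in control cultures, against a background of 6.66% of 9825 genes, and 2 (1.5%) lower, against 3.36%. These counts depended on the filter on low values: with no filter, limma called 8 of 196 nearest genes higher (4.08%, against a background of 1.46%) and none lower. The regions were not chosen by RNA levels. Of the 232 nearest genes, those absent from the RNA table or with a mean RPKM under 1 in the fit were not tested. The median log2 fold change of the nearest genes was 0.19, and that of all genes tested 0.01. Stat5b was 87 and 91.7 RPKM in the TGF-β plus IL-4 columns and 40.9 and 42.7 in the control columns (log2 fold change 1.08 ± 0.07 SE, limma adjusted p = 4.97e-06). Socs1 was 262 and 252 against 137 and 135 (0.91 ± 0.07 SE, limma adjusted p = 1.05e-05). Il4ra was 89.7 and 95.7 against 48 and 50.1 (0.90 ± 0.07 SE, limma adjusted p = 1.64e-05).

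Of the 4 TGF-β list genes nearest to a region, limma called Runx1 and Tgfbr2 higher, and did not call Tgif1 (0.11 ± 0.09 SE, limma adjusted p = 3.86e-01) or Smad2 (0.27 ± 0.09 SE, limma adjusted p = 5.13e-02). Runx1 was 13.9 and 14.1 RPKM against 5.89 and 5.5 (log2 fold change 1.17 ± 0.09 SE, limma adjusted p = 1.53e-05), and Tgfbr2 was 20.4 and 24.1 against 10.1 and 9.47 (1.10 ± 0.10 SE, limma adjusted p = 3.79e-05). Maf (1.04), Ifngr2 (0.68), Rbms1 (0.68) and Gramd4 (0.59) were higher on the log2 scale as well. Maf was under the filter on low values with IL-4 alone, so its passing the filter here depended on the TGF-β plus IL-4 columns. Lef1, at 0.56, passed the adjusted p (6.80e-04 by limma) and not the fold. The largest changes among nearest genes tested were those of Arhgap25 (1.70) and Ankrd55 (1.67), both with the STAT6 letters in the region. Both are named after their values were seen. Ankrd55 was under the filter on low values with IL-4 alone and with TGF-β alone. Its passing the filter here depended on the TGF-β plus IL-4 columns, so its call and rank are given as a description. The 2 lower genes were Eed (−0.76) and Rad23b (−0.59). Each fold change is on the log2(RPKM + 1) scale, which understates the change of low genes.

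In the matched WT columns with IL-4 alone, limma called 3 of 127 nearest genes higher than in control (background 0.548% of 9674 genes) and none lower (background 0.207%; 1367 genes had an unadjusted p under 0.05). These were Fam198a (log2 fold change 1.12), Socs1 (0.81) and Timd2 (1.55), and Socs1 was 250 and 230 RPKM in the 2 IL-4 columns. Fam198a and Timd2 were under the filter on low values with TGF-β alone and the same control columns. Their passing the filter here depended on the IL-4 columns, so their calls are given as a description. No fit without the filter was made for IL-4 alone. Il4ra was not called with IL-4 alone (0.49 ± 0.07 SE, limma adjusted p = 1.43e-02) or with TGF-β alone (0.08 ± 0.07 SE, limma adjusted p = 5.41e-01). With TGF-β alone, 11 of 126 were higher (background 3.51% of 9731 genes) and none lower (background 2.25%; 2635 at an unadjusted p under 0.05), with Arhgap25 (1.42), Maf (1.29), Runx1 (0.78), Stat5b (0.73) and Tgfbr2 (0.70) among them. For Maf, passing the filter depended on the TGF-β columns. The 3 comparisons share the 2 control columns. No KO column was matched, so whether these genes were higher in KO cultures was not tested beyond the fit with columns as headed. Over the 12 columns headed KO, Socs1 ranged from 55.4 to 202 RPKM (median 116), Il4ra from 41.8 to 131 RPKM (median 65.9), Stat5b from 26.7 to 47.2 RPKM (median 35.7) and Runx1 from 4.6 to 6.29 RPKM (median 5.26). The Socs1 values fell into 2 separate sets, given under Other observations, and their median lay in neither.

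**Figure D5:**
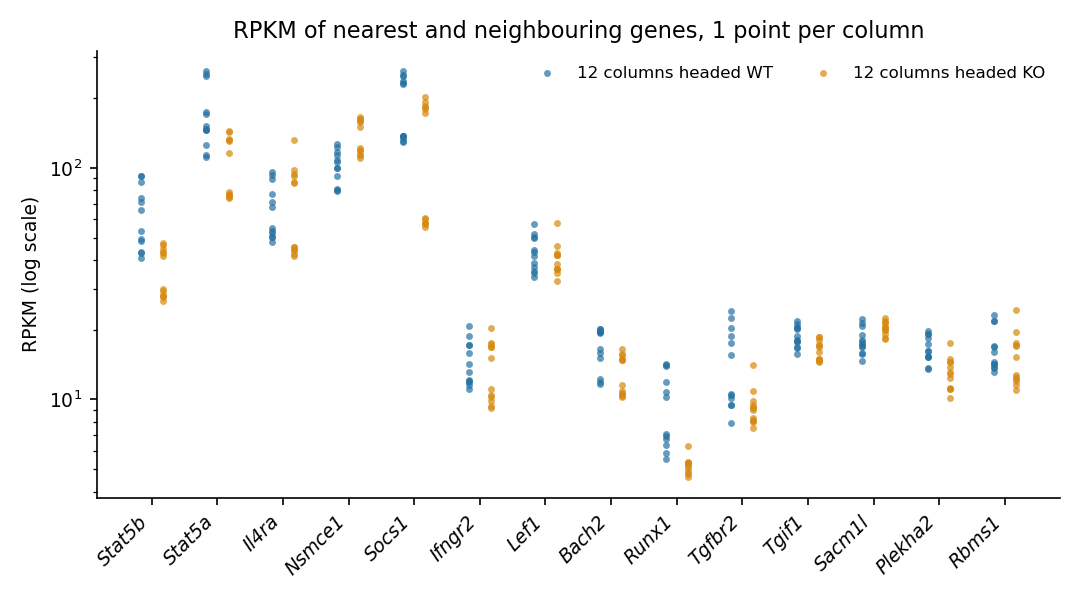
RPKM (y axis, log scale) of genes nearest to the described regions or beside them (x axis), 1 point per RNA column, for the 12 columns headed WT (blue) and the 12 headed KO (orange). Socs1 spans 130 to 262 in the WT columns and 55.4 to 202 in the KO columns, and Runx1 stays at or below 6.29 in the KO columns.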

How the data were processed

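DNase-seq was from 4 cultures (1 library each) and RNA-seq from 24. The authors mapped reads to mm9 with Bowtie2, removed reads with a mapping quality of 10 or less and redundant reads, and called narrow peaks per library with MACS2, for which the deposited lists give a fold enrichment, a −log10 p and a −log10 q. The deposited RNA table holds RPKM computed by the authors with edgeR. Versions are not given in the sources used here.

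Peaks were merged at an overlap of 1 bp, annotated with GENCODE vM1 protein-coding genes, and searched for letters with pandas 2.3.3 and pysam 0.24.0 on Python 3.11.15. RNA comparisons used limma 3.58.1 on R 4.3.3, fitted to the 2 groups compared, with a pseudocount of 1 and a mean RPKM of at least 1, after a check on simulated data. Named regions were the 20 strongest by the lower percentile, those nearest to genes of the IL-4 and Th2 or TGF-β lists, and genes nearest to 4 or more regions. The regions and gene lists were chosen with earlier results of these data known. Values of some nearest genes are not reported here. Alternatives varied overlap, peak threshold, list length, window, distances and the RNA fit.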

Additional observations from a re-analysis of the deposited data

How the results depend on the processing

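The number of regions depended on the rule's details. It was 440 when an overlap had to cover 50% of each peak, 690 when summits had to lie within 100 bp, 80 with a −log10 q of at least 5 in the TGFb+IL4 lists and 771 with the same number of top peaks from each list. It was 161 with that q in all 4 lists and 172 with no control peak within 1000 bp. The promoter share was 24.7% with a wider distance for promoters, 14.2% with a narrower one and 10% at the stricter q. The share with the STAT6 letters was 10.5% with 50 bp on each side (2.79% of all merged regions), 27.2% with 150 bp (8.41%), 20.5% at the KO summit, 31.2% at the stricter q and 16.2% with equal lists. The median percentile by fold enrichment was 22.4 in WT and 21.1 in KO. Nearest genes with a median RPKM of at least 5 made up 37.7%, and of at least 0.1, 75%. Regions nearest to an IL-4 and Th2 list gene were 2 instead of 3 under both alternatives. The cause was not tested. The equal lists for the STAT6 share and all settings with matched columns were chosen after seeing the data.

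With RNA columns as headed, limma called 0 genes under each alternative and without each replicate (0 to 0), also with the replicate block (0 in WT and 0 in KO), except 9 genes in KO at an adjusted p under 0.05 and 984 in WT with the matched columns, of which 654 were higher. Same-numbered columns deviated from their group means with correlations of −0.22, −0.74 and −0.15 in WT and 0.48, −0.42 and 0.38 in KO, all negative in WT and of mixed sign in KO. In the matched columns the replicate block gave 665 genes higher and 345 lower, and the calls were 933 with all WT cultures in the fit, 1005 at an adjusted p under 0.05, 1211 with a pseudocount of 0.1, 296 with no filter, 639 at a mean RPKM of at least 5 and 867 to 1091 without 1 column, where a lone sample is assumed to vary like the other group. The nearest genes called higher were 8 of 196 with no filter (4.08%, against 1.46%), 16 of 82 at a minimum of 5 (19.5%, against 5.63%) and 24 to 30 without 1 column.

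Limits: 1 DNase-seq library per condition and unknown depth leave the absence of a control peak without a replicate check. Oil and tamoxifen mice differ in both drug and deletion. IL-4 was not given alone in the DNase-seq cultures. The nearest gene need not be the one a region acts on.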

Other observations

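Among the regions not named by the rule, those with the STAT6 letters included ones in introns of Arhgap25, Ankrd55, Asb2, Zfp217 and Fam198a, at the St6gal1 promoter, and upstream of Tnfsf4, which encodes OX40L, and of Ezr, which encodes ezrin. Their percentiles in WT and KO were 56.6 and 12.3 at Arhgap25, 29.4 and 52.6 at Ankrd55, 31.4 and 14.2 at St6gal1, and 23.5 and 19.2 at Tnfsf4. They are named after their values were seen.

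The 12 RNA columns headed KO fell into 2 sets for Socs1, 6 between 55.4 and 60.7 RPKM and 6 between 172 and 202. Each culture's headings included both sets, and as the KO headings were not checked, whether the sets follow the cultures was not tested. If the KO columns also stood in ascending library number, the higher set would be the cultures given IL-4, alone or with TGF-β. That order was not checked for the KO columns. As headed, Socs1 in KO control was 58, 60.2 and 183, in KO TGFb 180, 60.7 and 57.1, in KO IL4 185, 193 and 55.4, and in KO TGFb+IL4 57.6, 172 and 202.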
